A study of Homo sapiens with 8 samples.

Results

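The CXC chemokines CXCL1, CXCL2, CXCL3, CXCL5, CXCL6, IL8 (now named CXCL8) and CXCL16 and the CC chemokine CCL20 were followed by RNA sequencing in colorectal cancer cells. The members were the entries of the gene tables with one of these symbols, 8 of the 40693 symbols listed. The only measured values in the rule were counts: a repeated symbol would have been chosen by its highest summed count, but each of the 8 symbols occurred once, so no count chose a member. The family was proposed with earlier results of these libraries known, and how many of its members changed is therefore given as a description.

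The study compared 4 groups of established human cell lines, under a title about liver metastasis of colorectal cancer and altered transcription programmes. SW620, a line from Dukes' type C adenocarcinoma, carrying a lentiviral hairpin RNA against the transcription factor FOXA2 (shFOXA2, 3 libraries) was set against SW620 with a control hairpin (shNC, 3 libraries). Untreated SW620 (1 library) was set against untreated SW480 (1 library), a line from Dukes' type B adenocarcinoma. All 6 hairpin libraries came from puromycin-selected stable populations whose vector carries a U6 promoter, a puromycin resistance gene and mCherry, and whose medium contained fetal bovine serum. The labels give 2 target sequences for FOXA2, and the sample titles point to hairpin 1. Nothing in the labels says that the 3 libraries of a group were separate cultures, so p-values measure only the spread between these libraries.

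Chemokines are small secreted proteins that attract leukocytes through G protein-coupled receptors. CXCL1, CXCL2, CXCL3, CXCL5, CXCL6 and IL8 carry the Glu-Leu-Arg motif before their first cysteines and bind CXCR2, and IL8 and CXCL6 also bind CXCR1, receptors found above all on neutrophils. CXCL16 is made as a transmembrane protein, binds CXCR6 and is released by the proteases ADAM10 and ADAM17. CCL20 binds CCR6 and draws dendritic cells and lymphocytes to the gut epithelium. Inflammatory signals raise most of these genes through the transcription factor NF-kB, and AU-rich stretches in their 3' untranslated regions (UTRs) shorten the life of their mRNAs.

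The 6 chemokines that bind CXCR2 lie together on chromosome 4, within 359 kb (chr4:73740506-74099293 of GRCh38), whereas CXCL16 is on chromosome 17 (chr17:4733526-4739922, minus strand) and CCL20 on chromosome 2 (chr2:227805739-227817564, plus strand). All 8 are protein-coding genes in GENCODE v29. RefSeq promoter sequences of GRCh38.p14, which lie mostly upstream of each start, were matched for 7 of the 8 members. A run of 9 bases occurred in all 6 chromosome 4 promoters, and 59 bases around it are shown, with that run in capitals, because the closeness of these promoters to each other is visible in them. The strand of each gene is written 5' to 3'.
CXCL1: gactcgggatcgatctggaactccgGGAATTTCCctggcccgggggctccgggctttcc
CXCL2: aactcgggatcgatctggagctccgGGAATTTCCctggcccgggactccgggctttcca
CXCL3: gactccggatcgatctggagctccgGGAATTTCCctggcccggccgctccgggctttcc
CXCL5: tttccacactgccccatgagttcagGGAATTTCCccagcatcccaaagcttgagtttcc
CXCL6: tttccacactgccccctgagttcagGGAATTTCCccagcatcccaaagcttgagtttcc
IL8: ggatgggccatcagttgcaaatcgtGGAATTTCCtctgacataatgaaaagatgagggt
The windows are chr4:73869290-73869348 (CXCL1, plus strand), chr4:74099239-74099297 (CXCL2, minus), chr4:74038734-74038792 (CXCL3, minus), chr4:73998734-73998792 (CXCL5, minus), chr4:73836564-73836622 (CXCL6, plus) and chr4:73740453-73740511 (IL8, plus).

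The shared run starts 78, 77 and 78 bases upstream of the RefSeq start in CXCL1, CXCL2 and CXCL3, 90 and 89 bases upstream in CXCL5 and CXCL6, and 91 bases upstream in IL8. On either strand, GGAATTTCC occurs in 0.461% of 35116 RefSeq promoters of the same length. The longer GGGAATTTCCC, common to the 5 promoters other than that of IL8, occurs in 0.077%. CXCL5 and CXCL6 share an unbroken run of 45 bases that contains it, CXCL2 and CXCL3 one of 37 bases, and CXCL1, CXCL2 and CXCL3 together one of 23 bases. CXCL1 and CXCL2 also share a run of 42 bases elsewhere in their promoters. The longest run that IL8 shares with any of the other 5 is 9 bases. The NF-kB consensus was searched on both strands as GGGRNWYYCC, where R is A or G, N any base, W A or T and Y C or T. It matched 6 of the 7 promoters (all but that of IL8) and 5.91% of all promoters. In the 5 with the longer run its match overlaps that run. In IL8, the shared run with the base before it differs from this strict pattern only at the first base. The missing match therefore does not show that IL8 lacks an NF-kB site. The AP-1 motif TGANTCA matched IL8 alone, against 7.71% of all promoters, TATAAA matched IL8 and CCL20, against 11.5%, and TGTTTAC, searched as a forkhead motif, matched none of the 7, against 3.42%. Such matches describe letters in these windows and are not binding sites.

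The 3' UTRs of 7 members are dense in the AU-rich pentamer ATTTA. CXCL2 has 10 in 721 bases, which is 13.9 per kb, and 99.8% of genes with a 3' UTR of at least 200 bases have a lower density. CXCL3 has 10.4, IL8 7.19, CXCL1 7.08, CCL20 6.24, CXCL5 5.51 and CXCL6 5.36 per kb, and between 93.5% and 99.4% of genes are lower. CXCL16 stands apart, with 1 pentamer in 977 bases, 1.02 per kb, and 37.1% of genes are lower. The target of FOXA2 hairpin 1 is shown because its capitals mark 2 overlapping stretches of 7 bases, AACACGT and ACACGTA, that earlier analysis of these libraries had singled out in 3' UTRs.
FOXA2 hairpin 1: gaacggcatgAACACGTAcat
Either stretch occurs in the 3' UTR of 1 of the 8 members, CXCL16, and in 4.98% of the 19163 genes with an annotated 3' UTR.

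Total counts were 7478411 to 12068790 in the shFOXA2 libraries and 12133652 to 13076566 in the shNC libraries, 95935348 in SW620 and 72323506 in SW480. Levels of a gene are given in CPM, the count scaled to the library total after TMM scaling over the 8 libraries, and 3 counts, the floor used here, are 0.0313 CPM in SW620 and 0.397 CPM in the shallowest library (shFOXA2 replicate 2). Intervals and floors cover counting error only. FOXA2 itself stood at 29.7, 28.6 and 21.7 CPM in shFOXA2 and at 52.4, 48.8 and 51.9 CPM in shNC, a log2 fold change of -0.91 (SE 0.09, edgeR adjusted p = 6.88e-10). It stood at 82.2 CPM in SW620 and 4.62 CPM in SW480. Replicate 1 of each hairpin group stood apart from its other replicates: pairs that include it differed with a chi-square per degree of freedom of 3.97 to 4.59, against 1.67 and 1.74 for the other pairs. Summed epithelial markers were at 8053 to 8428 CPM in shFOXA2, 8119 to 8873 CPM in shNC, 6026 CPM in SW620 and 6455 CPM in SW480.

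IL8 and CXCL3 were higher in SW620 with the FOXA2 hairpin than with the control hairpin, while no member was called lower. With all 6 hairpin libraries, 7 members passed the expression filter, CXCL5 did not, and 2 of the 7 were called higher in shFOXA2, by edgeR's quasi-likelihood test with Benjamini-Hochberg adjustment over all genes. Among the 16100 genes tested, 19.2% were called higher in shFOXA2 and 19.8% lower, 39% in all, so the members' share is near the background for higher genes. The median log2 fold change was 0.19 over the 7 members and 0.01 over all genes. In bulk RNA, a change in the RNA per cell and a change in the share of cells that make it cannot be told apart. The sample titles point to FOXA2 hairpin 1 alone, so an effect of lower FOXA2 and another effect of this hairpin cannot be told apart either.

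IL8, the main neutrophil attractant of the family, had 62.2, 61.6 and 57.6 CPM in the shFOXA2 libraries, against 40.0, 30.8 and 27.3 CPM in the shNC libraries. The 3 shFOXA2 libraries lay close together and above every shNC library. Means were 60.4 ± 2.48 CPM in shFOXA2 and 32.7 ± 6.57 CPM in shNC (SD, n = 3 each), 1.88-fold higher, with a log2 fold change of 0.91 (SE 0.13, edgeR adjusted p = 0.00134). The call held whichever of the 6 libraries was left out, with log2 fold changes of 0.80 to 1.07 and an adjusted p of at most 0.0149. An exact permutation test on this gene alone gave a two-sided p of 0.1, the smallest that 20 splits of 3 against 3 allow.

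CXCL3, one of the 3 GRO chemokines, had 17.0, 18.1 and 16.2 CPM in shFOXA2, against 13.2, 10.96 and 14.1 CPM in shNC. The groups again did not overlap. Means were 17.1 ± 0.96 CPM in shFOXA2 and 12.7 ± 1.61 CPM in shNC (SD, n = 3 each), 1.37-fold higher, with a log2 fold change of 0.45 (SE 0.11, edgeR adjusted p = 0.00110). Leaving out each library in turn gave 0.35 to 0.52 and an adjusted p of at most 0.0191. IL8 and CXCL3 were the members whose shFOXA2 libraries all lay above the shNC libraries, which was the case for 21.2% of all genes tested, and groups that did not overlap in either direction were seen for 48.7%.

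CXCL1, another GRO chemokine, had 48.0, 52.4 and 43.8 CPM in shFOXA2, against 188, 25.8 and 26.8 CPM in shNC. Replicate 1 of shNC was 6.997-fold above the higher of its 2 fellows and above every other hairpin library, on 2415 counts, whereas the other shNC libraries lay below all of shFOXA2. Means were 48.1 ± 4.31 CPM in shFOXA2 and 80.2 ± 93.2 CPM in shNC (SD, n = 3 each), and the log2 fold change of -0.71 (SE 1.00, edgeR adjusted p = 0.645) was not called. Without shNC replicate 1 the sign turned round: the log2 fold change was 0.88 (SE 0.08, edgeR adjusted p = 4.66e-13), or 1.84-fold higher in shFOXA2. Without both libraries numbered 1, a fit added after the values were seen, it was 0.89 (edgeR adjusted p = 2.20e-19). The p-values of these fits are descriptions only, because the library that differed most was the one left out. The direction of CXCL1 thus depended on 1 library.

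CXCL2, the third GRO chemokine, had 8.20, 7.02 and 6.55 CPM in shFOXA2, against 11.4, 5.67 and 5.94 CPM in shNC. As for CXCL1, shNC replicate 1 was the highest hairpin library and the other shNC libraries were below all of shFOXA2, with a smaller gap and 53 to 146 counts per library. The log2 fold change was -0.04 (SE 0.27, edgeR adjusted p = 0.926) with all libraries and 0.35 (edgeR adjusted p = 0.148) without shNC replicate 1. Reads of the GRO chemokines are partly interchangeable: 4.81% of the 50-base windows of CXCL1 transcripts, 12.5% of those of CXCL2 and 6.01% of those of CXCL3 also occur in transcripts of another of the trio. The sources used here do not say how such reads were counted, so part of each count is uncertain.

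CXCL6 had 64.0, 59.0 and 59.3 CPM in shFOXA2, against 63.8, 44.3 and 54.9 CPM in shNC. The groups overlapped through shNC replicate 1 alone. Means were 60.8 ± 2.78 CPM in shFOXA2 and 54.3 ± 9.78 CPM in shNC (SD, n = 3 each), with a log2 fold change of 0.19 (SE 0.14, edgeR adjusted p = 0.348). Without shNC replicate 1 it was 0.31 (SE 0.07, edgeR adjusted p = 6.48e-04). In the fit without both libraries numbered 1, added after the values were seen, it was 0.29 (edgeR adjusted p = 6.28e-04). CXCL5, its near relative with an almost identical promoter stretch, was at the edge of detection, with 0.410, 1.19 and 1.27 CPM in shFOXA2 and 0.544, 0.766 and 0.813 CPM in shNC, from 5 to 13 counts per library. No difference in CXCL5 was detectable at this depth.

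CXCL16, the transmembrane member, had 3.69, 3.18 and 3.72 CPM in shFOXA2, against 2.57, 3.30 and 2.20 CPM in shNC. Replicate 2 of shNC lay within the shFOXA2 range, and the log2 fold change was 0.43 (SE 0.23, edgeR adjusted p = 0.139), from 24 to 45 counts per library. CCL20, the ligand of CCR6, had 10.7, 6.09 and 5.67 CPM in shFOXA2, against 12.1, 5.75 and 7.56 CPM in shNC. Its highest value in each group was that of replicate 1, and the log2 fold change was -0.12 (SE 0.42, edgeR adjusted p = 0.866). For both genes the groups overlapped, and neither was called in any fit that left out 1 library.

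**Figure D1:**
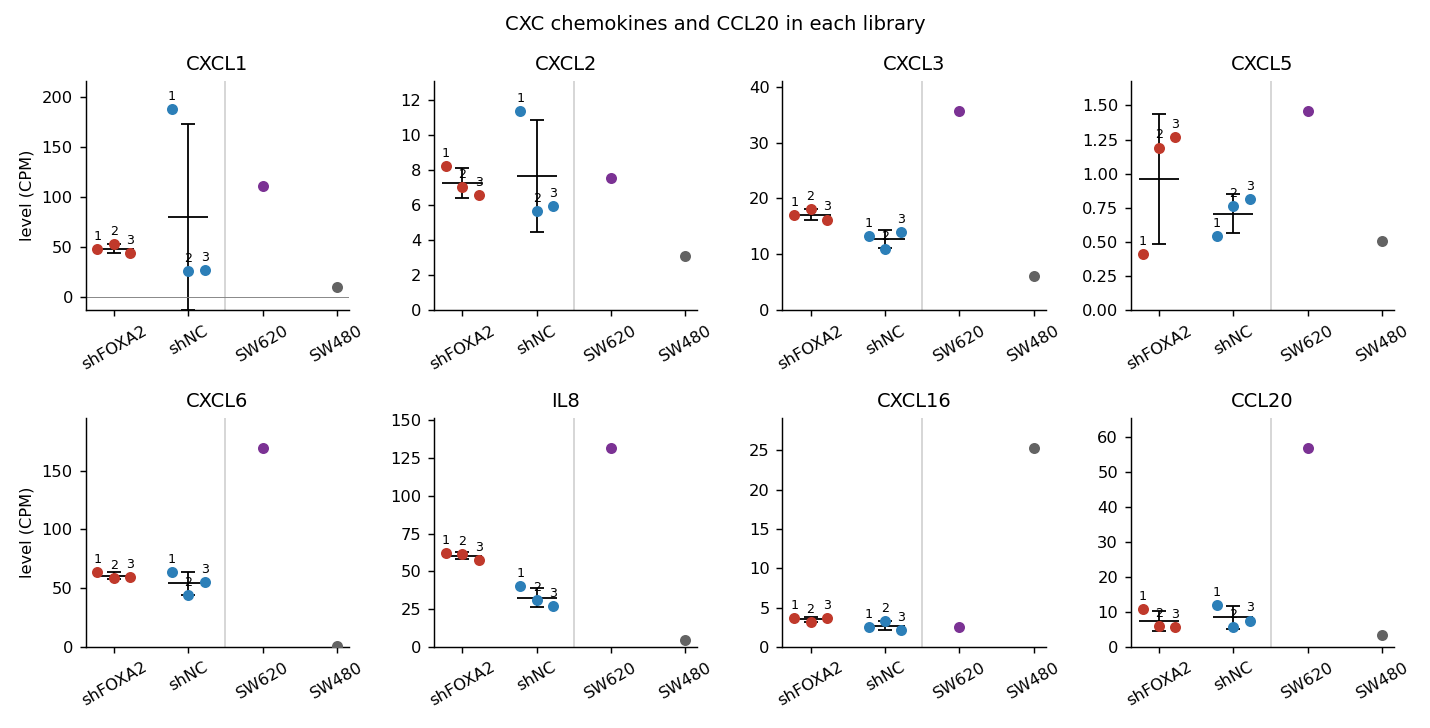
Level of each chemokine gene in CPM (y axis, 1 panel per gene, linear from 0 except where an SD reaches below 0) in shFOXA2, shNC, SW620 and SW480. Points are libraries, digits are replicate numbers, and horizontal bars with whiskers are mean ± SD of 3 libraries. The shFOXA2 points of IL8 and CXCL3 lie above all their shNC points, and shNC replicate 1 stands at 188 CPM for CXCL1, far from 25.8 and 26.8 CPM in the other shNC libraries.

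The pull of shNC replicate 1 differed between members. Against both other shNC libraries it was the highest for CXCL1, CXCL2, CXCL6, IL8 and CCL20, was intermediate for CXCL3 and CXCL16, and was the lowest for CXCL5. CXCL1 was 1 of 18 genes, of 13715 with at least 30 counts in that library, that were at least 4-fold above both other shNC libraries. Of the others, CHST2, GJA1 and KDR had the largest gaps, and RAB11B-AS1 and TCF15 the most counts (421 and 361). The others also included PTGS2, the inducible prostaglandin synthase, at 5.99 CPM against 0.460 and 0.244 CPM, on 77 counts. The interferon-induced chemokine CXCL11 was at 3.19 CPM against 0.383 and 0.407 CPM, on 41 counts. PTGS2 and CXCL11 were picked after their values were seen and do not stand for the whole set. The number of genes at least 4-fold above both other libraries of the group was 72 in shFOXA2 replicate 1 and 0 in each of the other 4 hairpin libraries. Without shNC replicate 1, all 8 members passed the filter and 4 were called higher in shFOXA2 (CXCL1, CXCL3, CXCL6 and IL8), against 16.9% of all genes. In the fit without both libraries numbered 1, added after the values were seen, the same 4 members were called, against 17.7% of all genes.

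**Figure D2:**
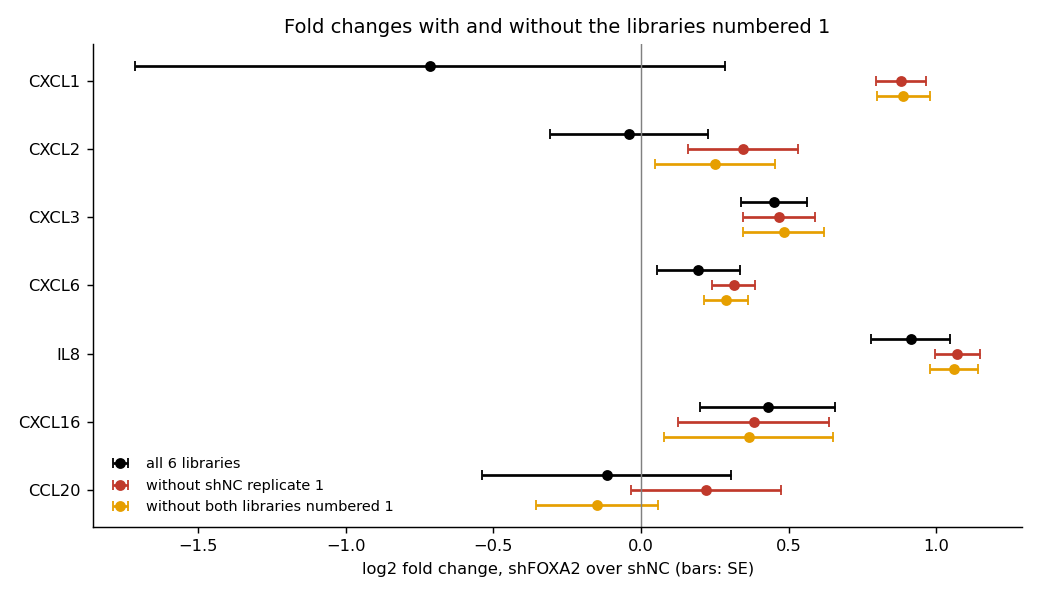
Log2 fold change of shFOXA2 over shNC (x axis, bars are SE) for the 7 members that passed the filter, with all 6 libraries, without shNC replicate 1 and without both libraries numbered 1. IL8 and CXCL3 stay right of 0 in the 3 fits, whereas CXCL1 moves to 0.88 without shNC replicate 1 from a value of -0.71 with it.

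Levels can be compared between genes only per length, and the authors' RPKM values were used for that. In shFOXA2, CXCL1 came first at 37.6 ± 3.17 RPKM (SD, n = 3), followed by CXCL6 at 28.2 ± 1.22 and IL8 at 26.9 ± 0.94, whose ranges overlapped. In shNC, CXCL1 averaged 61.2 ± 70.4 RPKM, a range that took in CXCL6 at 24.9 ± 4.18, and IL8 followed at 14.4 ± 2.65, below every CXCL6 value. IL8 and CXCL6 thus overlapped in shFOXA2, and IL8 was the lower of the pair in every shNC library. CXCL3, CCL20 and CXCL2 formed a middle tier, at 7.82 ± 0.40, 5.69 ± 2.12 and 4.90 ± 0.55 RPKM in shFOXA2 and 5.75 ± 0.73, 6.34 ± 2.36 and 5.09 ± 2.04 RPKM in shNC, and neighbours in this tier overlapped in both groups. CXCL16 (1.28 ± 0.11 RPKM in shFOXA2, 0.963 ± 0.20 RPKM in shNC) and CXCL5 (0.383 ± 0.19 RPKM in shFOXA2, 0.280 ± 0.06 RPKM in shNC) were last in both. Summed over the 8 genes, RPKM was 118, 115 and 106 in shFOXA2 and 212, 68.8 and 75.9 in shNC, so shNC replicate 1 was the highest and the other 2 shNC libraries the lowest. The first place of shNC replicate 1 rested on CXCL1, at 143 RPKM there, and was not shared by all members. IL8 at 17.3 RPKM and CXCL3 at 5.86 RPKM in that library were below every shFOXA2 library.

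**Figure D3:**
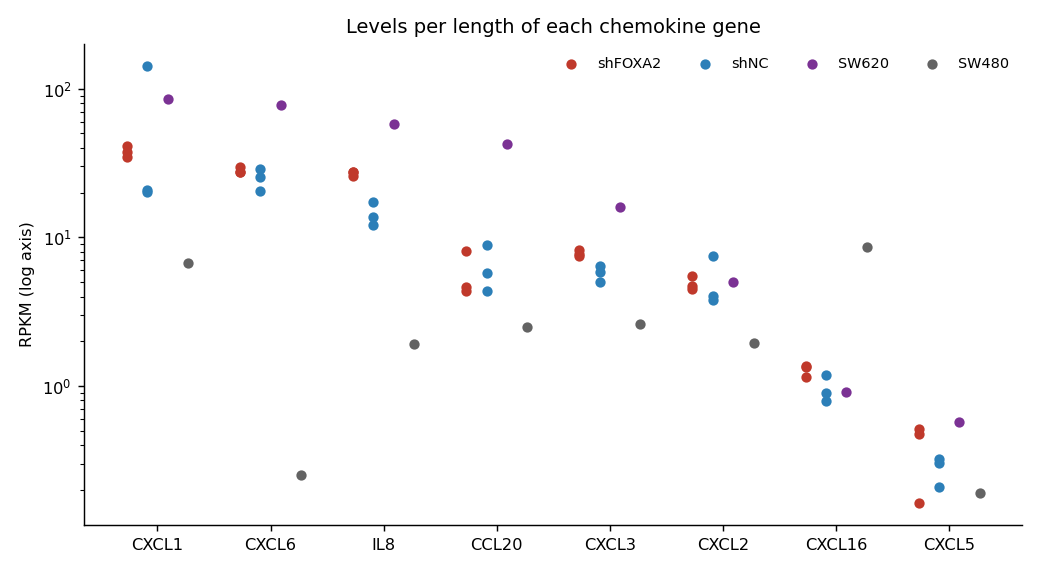
RPKM of each chemokine gene (y axis, log scale) in every library, ordered by the level in SW620, with points coloured by group. CXCL1, CXCL6 and IL8 lead in the SW620 libraries, and CXCL16 at 8.66 RPKM is the highest member in SW480.

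The comparison of the untreated lines was larger in size and has no replicate check, because each line had 1 library. All members except CXCL16 were higher in SW620 than in SW480. With 1 CPM added to both levels, 5 members (CXCL1, CXCL3, CXCL6, IL8 and CCL20) were at least 4-fold higher in SW620, against 2.27% of the 21343 genes whose higher library held 20 counts or more, and CXCL16 was at least 4-fold higher in SW480, against 2.87%. The median log2 ratio was 2.94 over the 8 members and 0.02 over all these genes.

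CXCL6 had 16270 counts in SW620 and 40 in SW480, a ratio of TMM-scaled counts of 296 (exact 95% interval 217 to 415), the widest gap of the family. At 77.7 RPKM in SW620 and 0.253 RPKM in SW480 it was second of the 8 genes in SW620 and next to last in SW480. IL8 followed with 12664 counts in SW620 and 316 in SW480, a ratio of 29.2 (26.1 to 32.7). CCL20, with 5473 counts in SW620 and 241 in SW480, had a ratio of 16.5 (14.5 to 18.9). CXCL1 led the family in SW620 at 85.7 RPKM, against 6.69 RPKM in SW480, and had a ratio of 12.4 (11.4 to 13.4). These 4 genes made up the bulk of the summed 287 RPKM in SW620, against 24.8 RPKM for all 8 members in SW480.

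The remaining CXCR2 ligands differed less. CXCL3 had a ratio of 5.95 (5.37 to 6.60), from 3421 counts in SW620 and 419 in SW480. CXCL5 and CXCL2 had ratios of 2.91 (2.00 to 4.35) and 2.49 (2.13 to 2.91). CXCL5 therefore sat far from CXCL6 in this comparison, although the printed promoter windows of the pair differ at few bases. CXCL16 had 246 counts in SW620 and 1750 in SW480, which is 9.77-fold higher in SW480 (8.54 to 11.2), and at 0.918 RPKM in SW620 and 8.66 RPKM in SW480 it ranked seventh in SW620 and first in SW480.

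Untreated SW620 is given beside the hairpin libraries without a comparison, since they differ in depth and in lentiviral treatment. CXCL6 was at 169.6 CPM in untreated SW620 and at 44.3 to 64.0 CPM over the 6 hairpin libraries, IL8 at 132 CPM and 27.3 to 62.2 CPM, and CCL20 at 57.1 CPM and 5.67 to 12.1 CPM. CXCL3 was at 35.7 CPM and 10.96 to 18.1 CPM. For CXCL2 the untreated value of 7.55 CPM lay inside the hairpin range of 5.67 to 11.4 CPM, and so did 111 CPM for CXCL1, inside 25.8 to 188 CPM only because of shNC replicate 1.

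Across the 8 libraries, log2(CPM + 1) of the members was correlated between members and with other genes. These Pearson correlations are descriptions, and SW480, shared by all of them, is an extreme point for most members. The pairs of members with the largest r in size were CXCL1 and CXCL2 (0.94), CXCL3 and IL8 (0.94), CXCL6 and IL8 (0.95), and CXCL6 and CXCL16 (-0.96). Other pairs were less close, down to 0.61 for CXCL2 and CXCL3, 0.53 for CXCL2 and CCL20, and -0.49 for CXCL16 and CCL20. Among all genes that passed the filter, CXCL1 was closest to TFPI, an inhibitor of the coagulation cascade (r = 0.96), then MPST and GATS, and CXCL2 to AGMO (0.96), with TFPI also among its closest genes. Shared height in shNC replicate 1 is visible in TFPI, at 4.43 CPM there and 0.537 to 1.46 CPM in the other hairpin libraries. CXCL3 was closest to YWHAG, a 14-3-3 protein gene (0.99), RP11-23P13.6 and KCNA2. CXCL6 was closest to GRAMD3, the transcription factor gene MYRF and the epithelial ETS factor gene EHF, each with r of 0.997 to 0.999. IL8 was closest to NFATC3, PROX1 and RP11-96D1.10, CXCL16 to CRAT, KDM3A and PROSER2, and CCL20 to CDC42EP4, THAP7-AS1 and SRPX2.

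Few other chemokine genes were expressed at a testable level. Against the 19.2% of all tested genes called higher and 19.8% lower, 1 of the 4 tested genes among 13 other CXC, CX3C and XC chemokines was higher in shFOXA2 and none lower. That gene was CX3CL1, fractalkine, which like CXCL16 is membrane-bound and shed: it had 13.9, 13.8 and 16.8 CPM in shFOXA2, against 6.76, 9.12 and 7.89 CPM in shNC, a log2 fold change of 0.94 (SE 0.13, edgeR adjusted p = 1.74e-07). Between the lines it was 37.8-fold higher in SW620 (29.004 to 50.1). Of 23 other CC chemokines, 5 were tested, CCL7 was called higher (log2 fold change 1.19, edgeR adjusted p = 0.00918) and CCL28, a mucosal epithelial chemokine, lower (-0.60, edgeR adjusted p = 0.0119). The call of CCL7 was lost without shFOXA2 replicate 2 or shNC replicate 2 (edgeR adjusted p up to 0.0909), and that of CCL28 without shNC replicate 1 or shNC replicate 3 (up to 0.112). CXCL14 had 0 counts in untreated SW620 and 475 in SW480, at least 217-fold higher in SW480 when 3 counts stand for the 0. In the hairpin libraries of SW620, however, CXCL14 was at 0.407 to 1.31 CPM, against 6.88 CPM in SW480. With 3 counts again standing for 0, XCL1, with 255 counts in SW620 and 0 in SW480, was at least 61.9-fold higher in SW620.

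The receptors for the members were scarcely present. CXCR1 and CXCR2, which bind the chromosome 4 chemokines, had 2 and 1 counts in SW620 and 11 and 44 in SW480, and neither passed the filter in the hairpin libraries. CXCR6, the receptor of CXCL16, had 96 counts in SW620 and 202 in SW480, 2.89-fold higher in SW480. CCR6, the receptor of CCL20, had 24 counts in SW620 and 10 in SW480. In the hairpin libraries CCR6 passed the filter, at 0.325 to 1.47 CPM, and was not called (log2 fold change 0.58, edgeR adjusted p = 0.347). Of 20 receptor genes found in the tables (of 23 listed), 4 were tested in the hairpin comparison, 1 was higher and 2 lower, against 19.2% and 19.8% of all genes. CXCR5, a receptor known from B cells, was higher in shFOXA2 (75.7 ± 0.67 CPM in shFOXA2 and 56.0 ± 2.99 CPM in shNC, SD, n = 3 each, log2 fold change 0.46, edgeR adjusted p = 7.63e-09). CCR7 was lower (-1.64, SE 0.46, edgeR adjusted p = 0.00336, and 0.0588 without both libraries numbered 1), but lay near the floor. It had 0.246, 0.397 and 0.684 CPM in shFOXA2, against 1.48, 1.69 and 1.06 CPM in shNC. In shFOXA2 replicates 1 and 2 these values are the floor of 3 counts. CXCR4 was also lower (-0.34, edgeR adjusted p = 0.0413). Its call was lost without shFOXA2 replicate 2, shFOXA2 replicate 3 or shNC replicate 1 (edgeR adjusted p up to 0.217). CXCR4 was 4.22-fold higher in SW480 (3.94 to 4.53).

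NF-kB genes were among the lists chosen with earlier results of these libraries known, and most of the printed promoters hold the NF-kB consensus. All 13 subunits, inhibitors and kinases found in the tables were tested, and 2 were higher and 2 lower in shFOXA2, against 19.2% higher and 19.8% lower over all genes. Their median log2 fold change was 0.14, against 0.01 over all genes. The kinase gene CHUK had a log2 fold change of 0.32 (edgeR adjusted p = 3.61e-07) and NFKB2 0.22 (edgeR adjusted p = 0.0138), while the subunit gene REL had -0.55 (edgeR adjusted p = 1.05e-06) and the kinase gene IKBKB -0.23 (edgeR adjusted p = 0.0224). The call of NFKB2 was lost without shFOXA2 replicate 1, shNC replicate 2 or shNC replicate 3 (edgeR adjusted p up to 0.129), and that of IKBKB without shFOXA2 replicate 2, shFOXA2 replicate 3 or shNC replicate 3 (up to 0.163). Of 12 other NF-kB target genes, 10 were tested, 5 were higher and 2 lower, against the same 19.2% and 19.8% of all genes, with a median log2 fold change of 0.15. BIRC3, an inhibitor of apoptosis, had a log2 fold change of 0.43 (edgeR adjusted p = 9.91e-05) and TNFAIP3, a feedback inhibitor of NF-kB, 0.29 (edgeR adjusted p = 0.00190, and 0.0541 without shNC replicate 1). TNFAIP2 had -0.29 (edgeR adjusted p = 0.00468) and SOD2 -0.14 (edgeR adjusted p = 0.0182, and 0.108 without shFOXA2 replicate 2). Between the lines, TNFAIP3 was 5.05-fold higher in SW620 (4.64 to 5.52), in the direction of IL8. ICAM1 and LCN2 were 7.49-fold (6.94 to 8.10) and 11.4-fold (9.41 to 13.99) higher in SW480, opposite to IL8.

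Among 20 inflammatory cytokines and their receptors, 12 were tested, 6 were higher and 1 lower in shFOXA2, against 19.2% and 19.8% of all genes, and their median log2 fold change was 0.46, against 0.01. The signal-transducing receptor gene IL6ST had a log2 fold change of 0.99 (edgeR adjusted p = 8.96e-15) and TLR4, the receptor for bacterial lipopolysaccharide that induces IL8 in many cells, 1.02 (edgeR adjusted p = 1.35e-13). LIF had 0.81 (edgeR adjusted p = 3.22e-12) and the interleukin-1 co-receptor gene IL1RAP 1.36 (edgeR adjusted p = 5.00e-09). Of these receptors IL1RAP and TLR4 were also higher in SW620 than in SW480, 4.95-fold (3.88 to 6.38) and 2.39-fold (2.23 to 2.56), while IL6ST was 4.51-fold, TLR2 22.05-fold and IL1B 11.7-fold higher in SW480. IL6 had 0 counts in both untreated lines, and TNF had 74 counts in SW620 and 55 in SW480.

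Of 9 proteins that bind AU-rich elements or degrade mRNA, all were tested, 5 were higher and 1 lower in shFOXA2, against 19.2% and 19.8% of all genes, and their median log2 fold change was 0.20, against 0.01. ZFP36L1 and ZFP36L2, which bind AU-rich elements and promote decay, had log2 fold changes of 0.58 (edgeR adjusted p = 2.79e-12) and 0.35 (edgeR adjusted p = 4.66e-08). CNOT1, the scaffold of the deadenylase complex, had 0.20 and TIA1 -0.26 (edgeR adjusted p = 1.02e-04 and 1.98e-04). Of 8 sheddases and chemokine-processing proteases, 6 were tested and 2 were higher, against 19.2% of all genes: ADAM17, which releases CXCL16 and fractalkine, with 0.39 (edgeR adjusted p = 3.20e-04), and MMP14 with 0.67 (edgeR adjusted p = 9.84e-04). MMP7 had 2477 counts in SW620 and 2 in SW480, a ratio of 902 (249 to 7453), and MMP14 was 4.64-fold higher in SW480 (4.28 to 5.03).

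The genes around the chromosome 4 chemokines are given beside them, without a test of the difference. Of 11 listed neighbours 6 were tested, 4 were higher in shFOXA2 and 1 lower, against 19.2% and 19.8% of all genes. In order of increasing position, the stretch holds AFM, RASSF6, IL8, CXCL6, PF4V1, CXCL1, PF4, PPBP, CXCL5, CXCL3, CXCL2, MTHFD2L, EPGN, EREG, AREG and BTC. EREG, AREG and BTC, which encode ligands of the epidermal growth factor receptor family, were higher in shFOXA2, with log2 fold changes of 2.10 (SE 0.10, edgeR adjusted p = 1.76e-20), 2.20 (SE 0.14, edgeR adjusted p = 9.81e-17) and 1.33 (SE 0.30, edgeR adjusted p = 3.11e-04). AREGB, a near-identical copy of AREG, gave almost the same values, and reads may fit either copy. RASSF6, on the other side of IL8, was lower (-0.39, SE 0.05, edgeR adjusted p = 2.55e-08), at 82.2, 83.5 and 87.3 CPM in shFOXA2 and 120, 105 and 114 CPM in shNC. MTHFD2L, which lies between CXCL2 and the growth factor genes, had a log2 fold change of 0.11 (edgeR adjusted p = 0.425). The platelet chemokine genes PF4, PF4V1 and PPBP, which lie among the members, had 0, 2 and 0 counts in SW620 and 0 each in SW480. Between the lines RASSF6 had 21103 counts in SW620 and 22 in SW480, a ratio of 699 (461 to 1115), EREG was 17.0-fold higher in SW620 (10.6 to 28.9), and MTHFD2L had a ratio of 1.11.

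**Figure D4:**
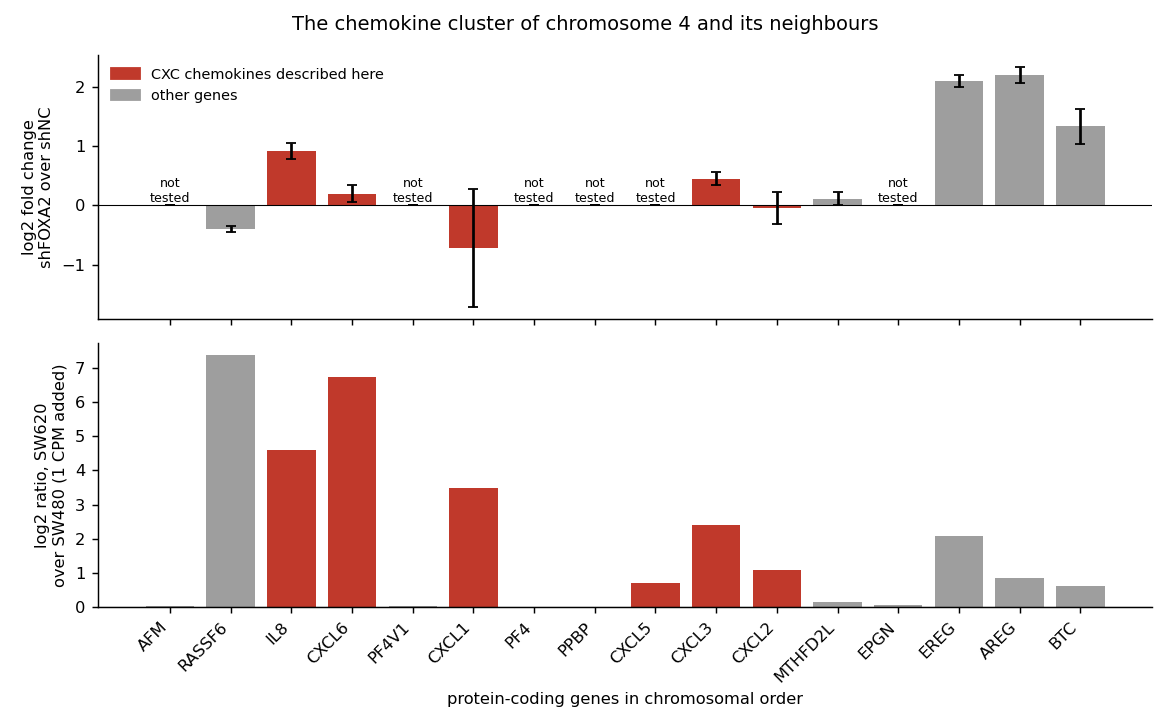
Genes of the chromosome 4 stretch in chromosomal order (x axis, not to scale), with the log2 fold change of shFOXA2 over shNC above (bars are SE, genes that failed the filter are marked as not tested) and the log2 ratio of SW620 over SW480 with 1 CPM added below (1 library each). In the hairpin comparison EREG, AREG and BTC rise above every chemokine, and in the line comparison RASSF6, CXCL6, IL8 and CXCL1 have the tallest bars.

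Summed markers of other cell types that also make chemokines differed between the groups at low levels. Summed over 12 leukocyte markers the level was 32.3 to 39.9 CPM in shFOXA2 and 22.8 to 28.9 CPM in shNC, 24.1 CPM in SW620 and 9.27 CPM in SW480. Of these, 6 were tested and 2 were called, CD4 and LYZ, both higher in shFOXA2. Over all tested genes, 39% were called in either direction. MS4A1 and FCGR3B had 0 counts in every library. CD14, CD68, ITGAM and PTPRC were tested and not called. PTPRC, the pan-leukocyte marker, had 0 counts in both untreated lines. It had 1.40 ± 0.32 CPM in shFOXA2 and 1.64 ± 1.41 CPM in shNC (SD, n = 3 each, log2 fold change -0.23, edgeR adjusted p = 0.805). The 8 fibroblast and endothelial markers in the tables summed to 16.4 to 21.8 CPM in shFOXA2 and 11.5 to 13.4 CPM in shNC, 10.4 CPM in SW620 and 4.20 CPM in SW480. Of these, 2 were tested and both were called higher in shFOXA2, against 19.2% of all genes. LUM, the bulk of the sum, had means of 12.5 CPM in shFOXA2 and 8.85 CPM in shNC (log2 fold change 0.53, edgeR adjusted p = 0.00111). COL1A1 had means of 4.32 and 2.17 CPM (1.06, edgeR adjusted p = 4.50e-04). COL1A2 and COL3A1 were at 0 in every library. All 6 epithelial markers were tested and 4 were called, against the same 39%: EPCAM and KRT19 lower, KRT18 and VIL1 higher in shFOXA2. Any part of other cell types in the chemokine values was not tested.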

How the data were processed

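RNA sequencing counts of 8 libraries were used: shFOXA2 (3), shNC (3), SW620 (1) and SW480 (1). Each deposited table gives raw counts, a length and RPKM for 42713 genes; total RNA and a directional kit are named per the labels' protocols. The authors' RPKM values follow from the deposited count, length and table total: recomputed values lay within a relative 1e-04 for 100% of genes with more than 20 counts. HOMER and hg19 appear in the submitters' processing notes; the sources used here do not give the aligner, the counting tool, the annotation or the use of strand.

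The members and the 9 gene lists were chosen with earlier results of these data known. The hairpin libraries were compared with the edgeR 4.0.16 quasi-likelihood test (R 4.3.3, robust, two-sided, TMM scaling, default expression filter), with Benjamini-Hochberg adjustment at 0.05 over all genes, and the SE was taken as the size of the log2 fold change over the root of F. For SW620 and SW480 the ratio of TMM-scaled counts is given with an exact 95% interval and no test. The threshold of 4-fold used 1 CPM added and at least 20 counts in the higher library. Depth, from 7478411 to 95935348 counts, sets the precision, and a count of 3 was the floor.

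Genes named beside the members were FOXA2, up to 4 called genes per list by p, up to 3 per list by size of the line ratio, the chromosome 4 genes and the 3 genes closest to each member, of which 1 is not reported here; receptors of the members, IL6 and TNF were added after their values were seen. Locations, transcripts and 3' UTRs came from GENCODE 29 on GRCh38, matched by identifier, and promoters from RefSeq on GRCh38.p14, a build other than that in the notes. Alternatives were DESeq2 1.42.0 size factors and its Wald test, total counts, no filter, limma-voom (limma 3.58.1), repeated symbols summed, blocking on the replicate number, leaving out single hairpin libraries, and other pseudocounts and count minimums. Leaving out both libraries numbered 1 was added after seeing the data. The edgeR fit and the ratio were tested on simulated data. Sequences and plots used Python 3.11.15, numpy 2.4.6, pandas 2.3.3 and matplotlib 3.10.9.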

Additional observations from a re-analysis of the deposited data

How the results depend on the processing

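Of the hairpin results on the 7 tested members, 86 values under the alternatives kept their direction and their side of the threshold, 8 changed sign, of which both values of CXCL1 were called, and 4 more, all of CXCL6, kept their sign and passed the threshold where the main value did not. CXCL3 and IL8 were called under every alternative run. CXCL1 had a log2 fold change of -0.71 with all libraries and 0.89 without both libraries numbered 1, -1.14 to 0.88 when single libraries were left out, and -0.068 by limma-voom. CXCL2 (main value -0.04) gave 0.037 by limma-voom, 0.25 without both libraries numbered 1 and -0.22 to 0.35 with single libraries left out, and CCL20 (-0.12) gave -0.50 to 0.22. None of the changes of CXCL2 and CCL20 was called. CXCL6 (0.19, not called) was called without the expression filter (0.16), with the replicate block (0.19) and without both libraries numbered 1 (0.29), and gave 0.064 to 0.31 with single libraries left out, of which the value without shNC replicate 1 was called. The cause of these changes was not tested. Over all 16100 genes tested, deviations of same-numbered libraries correlated at 0.01, -0.05 and 0.004. With the replicate block 6140 genes were called, against 6277 without it, and CXCL1 had -0.28 (edgeR adjusted p = 0.870). Single genes could still share a replicate effect: replicate 1 was the highest library of both groups for CXCL2, CXCL6, IL8 and CCL20. The block lowered the SE of CCL20 from 0.42 to 0.16, of CXCL6 from 0.14 to 0.07 and of IL8 from 0.13 to 0.08. It did not lower the SE of CXCL3 or CXCL16. The number of genes with a 4-fold or larger gap between SW620 and SW480 was 1098 with 1 CPM added and 2539 with 0.1 CPM. Over the combinations of gene list and setting, counts of called list genes fell past the 1.5-fold limit in 13 and grew past it in 1. Depth limits CXCL5, at 5 to 13 counts per hairpin library, and CXCL16, at 24 to 45, more than the other members.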
